A study of Drosophila melanogaster with 2 samples.

Results

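Binding of the zinc finger protein Hamlet (Ham) was examined at 10 Drosophila melanogaster genes of the Notch pathway and of asymmetric cell division, namely N, Delta, neur, mib1, spdo, numb, Su(H), gro, E(spl)m3-HLH and insc. They were taken by name from the 13968 protein-coding genes on the main chromosome arms, for their known roles. Earlier results of these data were known when they were chosen. Each bound region was given to the protein-coding gene whose annotated transcription start site lay nearest to its summit, the base of highest signal. By this rule the 10 genes held 137 of the 150585 candidate regions of the pooled data. The data were chromatin immunoprecipitation with sequencing (ChIP-seq) on whole embryos aged 0 to 24 h of the transgenic strain ham-GFP, which makes Ham joined to the green fluorescent protein eGFP. The chromatin was sonicated to fragments of 200 to 800 bp and precipitated with an antibody to GFP. The series held 2 biological replicates of this single group, and control libraries were not analysed here, so no comparison between groups and no test was made. Whole embryos mix all cell types, so frequent binding in a few cells and rare binding in many cannot be told apart.

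Notch is a receptor on the cell surface that is activated by Delta on a neighbouring cell. Its cleaved intracellular part joins the DNA-binding protein Su(H) to switch on target genes, among them the E(spl) genes. The helix-loop-helix products of the E(spl) genes repress transcription together with the corepressor Groucho. In dividing neuroblasts and sensory organ precursors, Numb is inherited by 1 daughter cell and blocks Notch there, so that the daughters take different fates. Ham is known for setting such fates in the sensory organ and olfactory neuron lineages of the fly.

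The deposited lists came at 2 levels. The candidate regions were a permissive set that covered 33.5% of the main arms, so a candidate region by itself marks little. The thresholded peaks were the subset that passed the authors' cutoff on reproducibility, the irreproducible discovery rate (IDR), and numbered 1495 in the pooled list, 516 in replicate 1 and 1050 in replicate 2. Each region carried a signal value, the authors' own measure of its height, and a score of up to 1000 that rises with reproducibility. Read depth was unknown, and the scale of the signal value between replicates was not stated. The median candidate region on the main arms had a signal value of 21.6 in the pooled list, 10.6 in replicate 1 and 15.96 in replicate 2.

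The sequences under the summits of the 4 thresholded peaks held by the 10 genes, and of a thresholded peak inside an intron of N, are shown because they are the thresholded sites that the results turn on. Each is 101 bases, 50 on either side of the summit, read 5′ to 3′ on the strand of the gene from the RefSeq Release 6 genome, build dm6. Capitals mark a match to any of 8 words searched on both strands, of which 2 are known from Su(H) sites, 3 are E-boxes known from sites of helix-loop-helix proteins, and the others are GATAA, the repeat word GAGAG and the palindrome TATCGATA. The Su(H) words were GTGGGAA and its variant form GTGAGAA. The E-boxes were CACGTG as well as the form CAGCTG and the form CAGGTG. None of the windows of the 4 peaks overlapped an untranslated region.
gro, chr3R:26042453-26042553, plus strand: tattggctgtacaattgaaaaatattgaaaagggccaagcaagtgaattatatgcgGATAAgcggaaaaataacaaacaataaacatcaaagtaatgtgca
numb, chr2L:9449587-9449687, plus strand: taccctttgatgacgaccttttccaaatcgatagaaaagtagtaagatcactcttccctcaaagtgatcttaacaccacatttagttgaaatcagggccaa
E(spl)m3-HLH, chr3R:26021499-26021599, plus strand: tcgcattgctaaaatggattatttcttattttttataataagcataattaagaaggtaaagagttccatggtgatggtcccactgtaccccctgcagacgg
mib1, chr3L:16011286-16011386, minus strand: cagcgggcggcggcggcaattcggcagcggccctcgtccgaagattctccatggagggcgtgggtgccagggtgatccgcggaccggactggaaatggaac
N intron, chrX:3162448-3162548, plus strand: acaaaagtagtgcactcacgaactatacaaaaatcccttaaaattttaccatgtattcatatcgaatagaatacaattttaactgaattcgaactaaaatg

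By the nearest start site, thresholded peaks stood at gro, numb, E(spl)m3-HLH and mib1, and at none of the other 6 genes. Thus 4 of the 10 genes held a peak, against 8.34% of all protein-coding genes, and each held 1. A thresholded peak inside an intron of N was nearest to the start site of another gene and is not counted here. Of the 137 candidate regions of the 10 genes, 2.92% were thresholded, against 0.964% of all candidate regions on the main arms. All 4 summits were in promoters, taken here as 500 bp to either side of any start site, against 52.1% of all thresholded summits. In the separate lists of the replicates, 2 of the 10 genes held a thresholded peak in replicate 1, where 2.82% of all genes did, and 2 in replicate 2, where 6.37% did. These were gro and numb in both lists. With 10 genes, each gene weighs 10 percentage points, and these counts describe the genes without showing that they stand apart. The genes were also chosen with earlier results of these data known, so the shares are no independent measure.

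**Figure D1:**
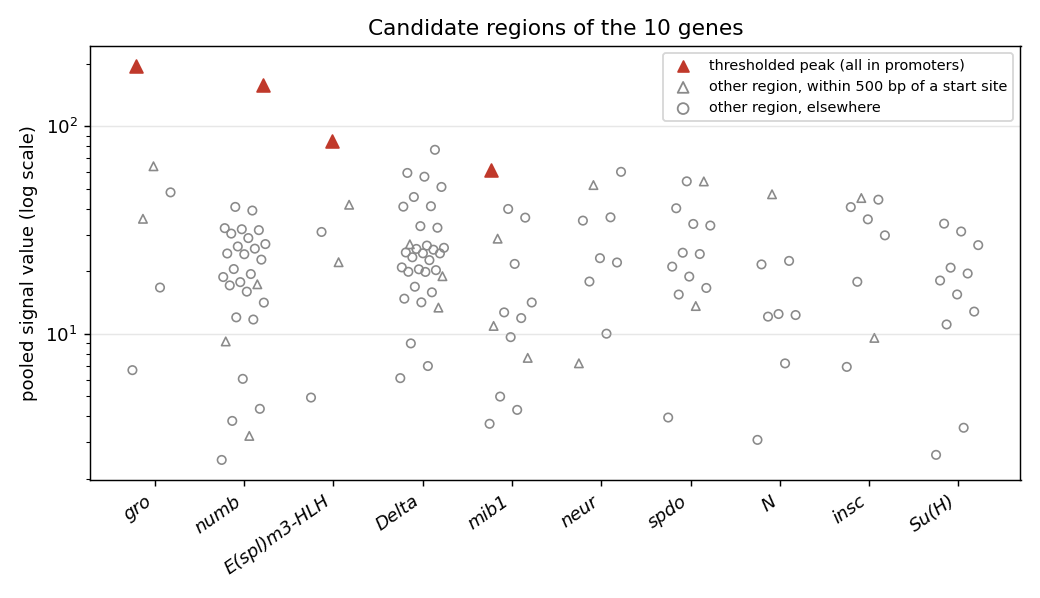
Signal value of every candidate region assigned to each of the 10 genes in the pooled list (log axis), with thresholded peaks marked. The peaks of gro at 196 and numb at 157 stand above all other regions of the 10 genes, whereas the peak of mib1 at 61.3 lies below the highest region of Delta at 77.0, which was not thresholded.

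The highest peak among the 10 genes was at gro, which encodes the Groucho corepressor (FBgn0001139, dm6 3R:26041736-26049911, plus strand). It spanned 3R:26042455-26042539 and had a pooled signal value of 196, which ranked 170 in the thresholded list. The same site had a signal value of 78.4 in replicate 1 and 107 in replicate 2, with the maximal score of 1000 in both. Each replicate on its own therefore placed this site in its thresholded list. Its summit lay at -138 bp from the nearest of 4 annotated gro start sites, and 767 bp downstream of another, so that it falls in an intron of the longer transcripts. The pooled peak was 85 bp wide, whereas the replicate regions over it were 296 and 300 bp wide. A separate candidate region at -71 bp from the first gro start site reached 64.1 in the pooled list and 22.4 in replicate 1, had no region in replicate 2, and was not thresholded at a score of 604.

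At numb, whose product is the membrane-bound Notch inhibitor (FBgn0002973, 2L:9437469-9464184, plus strand), the peak was inside the gene. It spanned 2L:9449469-9449804 with a pooled signal value of 157, rank 265 in the thresholded list. Replicate 1 gave 67.2 and replicate 2 gave 88.9 at this site, both thresholded. The summit was at -193 bp from the internal start site at 9449830 and 12168 bp downstream of the first start site. The region at the first start site was low, with a signal value of 17.3 at -15 bp. The height at numb thus sat at the internal promoter and not at the distal one. The authors' conservative list, a shorter thresholded list, held the numb peak. It also listed an overlapping region at 2L:9449668-9450003 with a signal value of 3.21.

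Between the distal promoter and the internal one, the pooled list held no summit between those at 923 and 11628 bp downstream of the first numb start site. Replicate 2 listed 12 regions in that stretch, and replicate 1 listed none. The first of the 12, with its summit at 995 bp, lay over the pooled summit at 923 bp. In all, replicate 1 held 101890 candidate regions and replicate 2 held 136956. Over the whole body of numb, replicate 1 held 1 region, the peak itself, whereas replicate 2 held 33. Low regions at numb therefore differed between replicates, while the peak was in both.

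**Figure D2:**
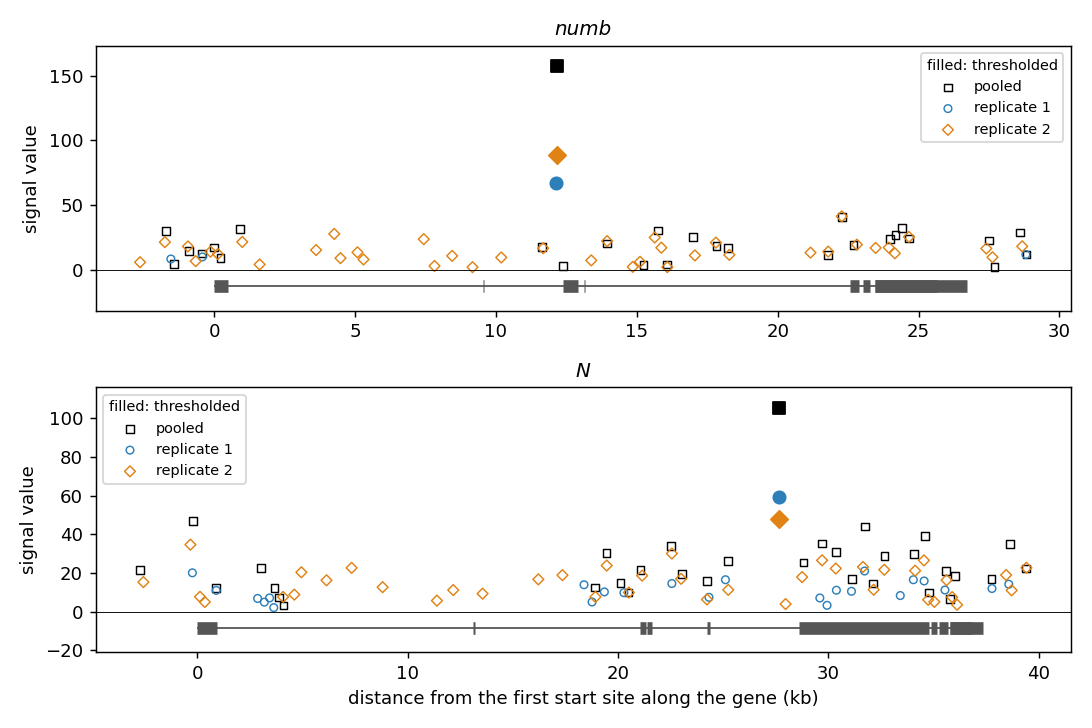
Signal value of candidate regions against distance in kb from the first start site along numb and N, for the pooled list and each replicate, with thresholded peaks filled and exons drawn beneath. The numb peak sits 12168 bp and the N intron peak 27628 bp into the gene, and both are filled in all 3 lists.

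E(spl)m3-HLH encodes a basic helix-loop-helix repressor that is switched on by Notch (FBgn0002609, 3R:26021823-26023127, plus strand). Its peak at 3R:26021381-26021716 was intergenic and its summit stood at -274 bp, and the start site of lncRNA:CR43644 was also within 500 bp. The pooled signal value was 85.3, rank 846 in the thresholded list. In replicate 1 the region there had a signal value of 27.8 with a score of 20, and in replicate 2 it had 57.8 with a score of 773, so that neither replicate alone passed its cutoff. The conservative list held the peak with a score of 860.

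The E(spl) complex is a cluster of 11 E(spl) genes with gro at its end, so these peaks share a neighbourhood. The summits of the E(spl)m3-HLH and gro peaks were 20954 bp apart. Over the complex with 2000 bp on either side, 56.3 kb in all, the pooled list held 74 candidate regions with a median signal value of 24.4, of which 2 were thresholded. The third highest region of the complex was the one near the first gro start site at 64.1. The remaining E(spl) genes, whose products are helix-loop-helix repressors or Bearded family inhibitors of Neuralized, reached at most 49.9, at E(spl)mdelta-HLH.

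**Figure D3:**
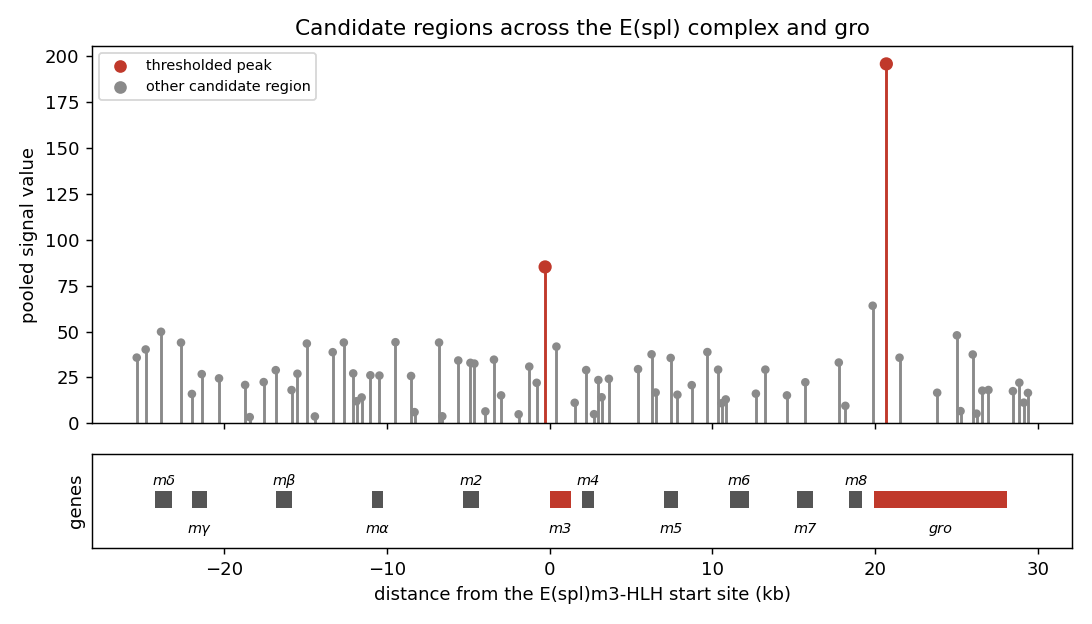
Pooled signal value of candidate regions across the E(spl) complex against distance in kb from the E(spl)m3-HLH start site, with genes drawn as boxes beneath. Thresholded peaks are the 2 red points of 74, at E(spl)m3-HLH (85.3) and gro (196), and the other regions reach at most 64.1.

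Besides numb, the genes that act on Delta and Notch trafficking were mib1, neur and spdo. Mib1 and Neur are ubiquitin ligases that drive the uptake of Delta, and Spdo is a transmembrane protein that Notch signalling needs in asymmetric divisions and whose location Numb controls. The mib1 peak (FBgn0263601, 3L:16006552-16011812, minus strand) spanned 3L:16011168-16011503, with its summit in coding sequence 476 bp downstream of the start site at 16011812. Its pooled signal value was 61.3, rank 1388 of 1495 in the thresholded list, with a score of 851 against the list's lowest score of 830. Replicate 1 gave 20.1 with a score of 99 and replicate 2 gave 44.4 with a score of 675, and neither was thresholded. The conservative list did not hold it. Among the 4 peaks this was the lowest, and 7.16% of thresholded peaks were lower.

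At neur (FBgn0002932, 3R:9020348-9039471, minus strand) the highest assigned region was intronic, 1740 bp downstream of the nearest start site. This region had a pooled signal value of 60.3 but a score of 97. It reached 45.5 in replicate 2 and had no region in replicate 1. The neur promoter region at -78 bp had 52.0 in the pooled list with a score of 458 and 41.9 in replicate 2. Replicate 1 assigned no region to neur, although it held 6 over the gene body that lay nearer to start sites of other genes. In the pooled list, 7 of 16 regions over the neur body were assigned to other genes, and the highest over the body was 61.2. Of the 4600 genes with at least 9 pooled regions, 31 had none in replicate 1 (0.674%). At spdo (FBgn0260440, 3R:30476684-30478849, plus strand) a pair of regions each reached 54.2, a coding one 1892 bp downstream and one 130 bp downstream of the start site, with scores of 525 and 515. The latter had 45.0 in replicate 2. No replicate 1 region covered its summit, although 2 overlapped it, the higher at 19.8 with a score of 46.

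Delta, the ligand (FBgn0000463, 3R:19302731-19326217, minus strand), had the highest region without a thresholded peak. It lay in an intron at 3R:19319130-19319465, 6919 bp downstream of the start site, with a pooled signal value of 77.0, above that of mib1. Replicate 1 gave 24.7 and replicate 2 gave 51.3. Its score of 800 was the nearest to the cutoff of all unthresholded regions of the 10 genes, and the lowest thresholded score was 830. Delta also held the most regions, 33, with further high ones at 59.5 (-12938 bp), 57.1 (8741 bp) and 50.95 (-2728 bp). Its own promoter region, 132 bp downstream of the start site, reached 27.0, so that the height at Delta lay away from its promoter.

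N, the receptor (FBgn0004647, X:3134870-3172221, plus strand), had a promoter region at -207 bp with a pooled signal value of 47.0, 20.0 in replicate 1 and 34.6 in replicate 2. It was not thresholded, with a score of 569. A thresholded peak did stand within the N gene, at X:3162330-3162665, in an intron 27628 bp downstream of the N start site. The nearest coding start site to it was that of CG18508, 10642 bp away, so the assignment rule did not give it to N, and it was singled out after its values were seen. Its pooled signal value was 105, rank 570 in the thresholded list, with 59.4 in replicate 1 and 47.8 in replicate 2. Both replicates thresholded it, and the conservative list held it. Replicate 1 thus gave the larger value here, whereas replicate 2 did at all 4 peaks described above. Of the 28 pooled regions over the body of N, 22 were nearest to other genes.

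Su(H), the DNA-binding partner of Notch, and insc, whose product Inscuteable links the spindle to the polarity proteins of the cell cortex, had the lowest highest regions. Su(H) (FBgn0004837, 2L:15039488-15043334, plus strand) reached 33.9, at a region 7923 bp downstream of its start site, past the end of Su(H) and in coding sequence of another gene, and 31.1 at 2616 bp, within its own coding sequence. Replicate 1 gave Su(H) at most 17.1 and replicate 2 at most 25.5. The insc gene (FBgn0011674, 2R:20821262-20836028, minus strand) reached 45.1 at -1687 bp, with further regions of 44.2 at -4827 bp and 40.7 at -2908 bp. Its highest values were 25.7 in replicate 1 and 34.3 in replicate 2. All 8 regions assigned to insc lay upstream of it, since all 19 regions over its body were nearest to start sites of other genes, the highest at 62.4. Neither gene had a pooled region within 500 bp of its own start site.

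Ranked among all protein-coding genes by their highest candidate region, with genes without a region counted lowest, gro exceeded 98.8% and numb 98.2% of genes in the pooled list. E(spl)m3-HLH exceeded 94.6%, Delta 93.5%, mib1 86.8%, neur 85.8%, spdo 78.6%, N 64.1%, insc 59.5% and Su(H) 33.1%. Gro and numb kept their place in both replicates, gro above 99.2% and 98.1% of genes and numb above 98.97% and 97.4% in replicates 1 and 2. Other genes shifted between replicates. In replicates 1 and 2, insc was above 87.9% and 68.8% of genes, Su(H) above 55.3% and 37.6%, spdo above 68.2% and 88.4%, and mib1 above 69.1% and 87.9%. In replicate 1, neur had no assigned region, so there it counted among the lowest genes and was given no percentage. The median of the 10 highest values was 60.8 and that over all genes was 43.2. The 10 genes also held more regions, with a median of 10 against 5 per gene, and a gene with more regions has more chances of a high one.

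**Figure D4:**
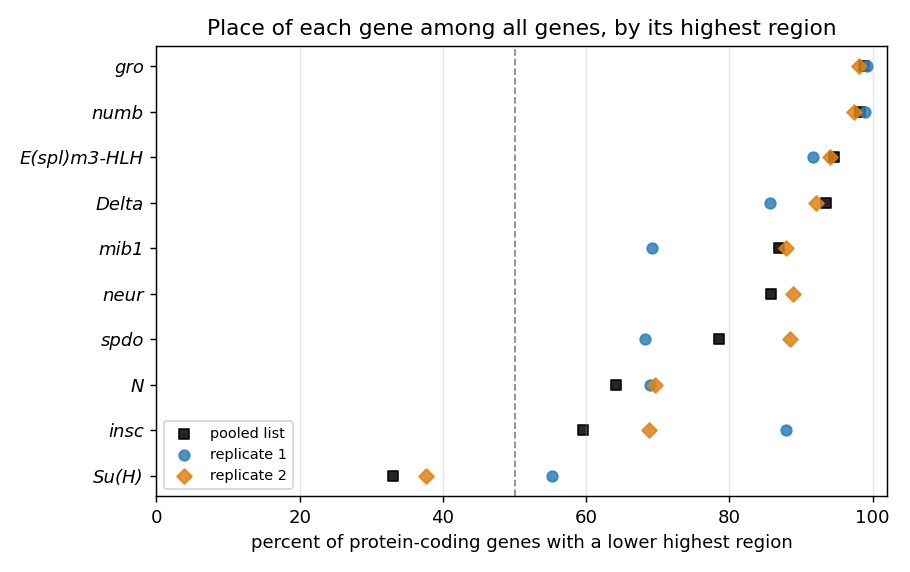
Percent of all protein-coding genes whose highest candidate region is lower than that of each of the 10 genes, in the pooled list and in each replicate. Gro and numb lie at or above 97.4% in every list, whereas Su(H) lies between 33.1% and 55.3%. The gene neur had no region assigned in replicate 1, counts among the lowest genes there and is not plotted for it.

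At their own promoters, 8 of the 10 genes had a pooled region, against 79.6% of all genes. The median of the 8 was 57.8, against 32.2 over all genes with such a region. Gro (98.6%), numb (97.8%) and E(spl)m3-HLH (93.8%) exceeded most of those genes, and Delta (36.2%) did not. By position, 24 of the 137 regions were in promoters, 47 in introns, 36 between genes and 25 in coding exons. Promoter regions made up 17.5% of the 137 and 16.0% of all candidate regions. The 24 promoter regions had a median of 27.8 and ranged from 3.21 to 196, and the 113 outside promoters had a median of 21.0. With promoter regions counted apart, the highest intronic region assigned to the 10 genes was that of Delta at 77.0. Over all 137 the median was 21.7, next to 21.6 over all candidate regions, so the typical region of these genes was of ordinary height.

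Near the cutoff, 6 regions of the 10 genes were at or above the mib1 peak in height and 4 of them were thresholded. The exceptions were the Delta intron and the region near the first gro start site. Over the main arms, 56.6% of the 2335 regions at or above that height were thresholded. That height was set by the lowest of the 4 peaks, so all 4 fall at or above it. The 7 regions of the 10 genes between a signal value of 50 and that height were therefore unthresholded by the choice of the band. Over the main arms, 0.686% of the 4081 regions from 50 to that height were thresholded.

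The replicates were compared site by site. The peaks of gro and numb overlapped a thresholded peak of both replicates by at least 1 bp, and those of E(spl)m3-HLH and mib1 overlapped one of neither, so the count was 2 of 4. Over all thresholded peaks on the main arms 25.3% overlapped one of both replicates, 40.4% one of replicate 2 alone and 30.7% one of neither. Of the 137 summits, 58 lay in a region of replicate 1 (42.3%, against 53.5% of all candidate regions) and 108 in one of replicate 2 (78.8%, against 75.9%). The ratio of the replicate 2 to the replicate 1 signal value was 1.36 at gro, 1.32 at numb, 2.08 at E(spl)m3-HLH and 2.21 at mib1, and its median over all regions with both values was 1.59. Over the 45 regions of the 10 genes with both values, Spearman's rho was 0.387 and Pearson's r of the log2 values was 0.446. Without the 4 thresholded peaks these were 0.191 and 0.111 over 41 regions. The 4 peaks left out were those that passed the cutoff on reproducibility, and the reason for the drop was not tested. Over 60201 regions of the main arms, rho was 0.256 and r was 0.298. The points share the same pair of libraries, and neighbouring regions are not independent.

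**Figure D5:**
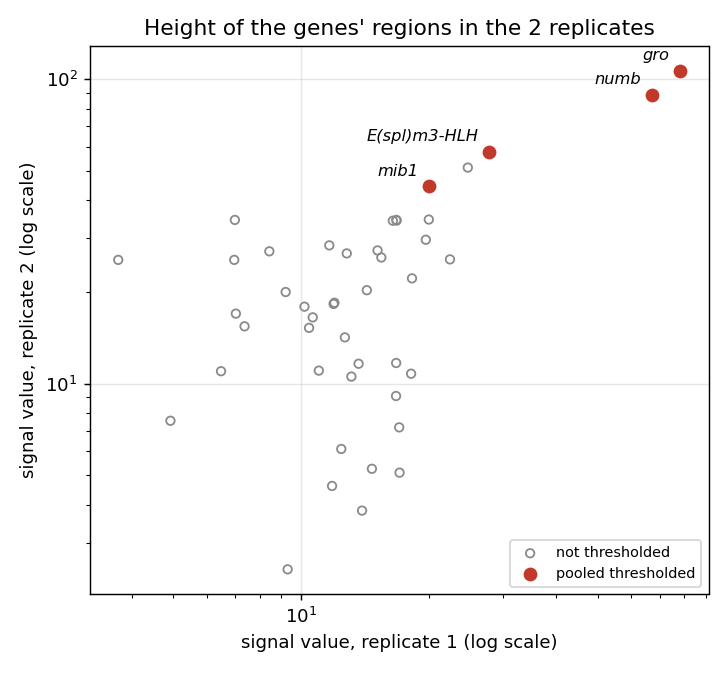
Signal value in replicate 2 against replicate 1 (log axes) for the 45 candidate regions of the 10 genes with a value in both, with the 4 thresholded peaks named. Gro and numb stand apart at the upper right, and Spearman's rho is 0.387 over all 45 regions.

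The sequences printed above differed in base composition and held few of the words searched. The gro window held GATAA, which was in 20.3% of all thresholded windows and 14.8% of all candidate windows. The other windows held none of the 8 words. Neither Su(H) word was in the windows of the 4 peaks, and each is rare, with GTGGGAA in 0.774% and GTGAGAA in 1.06% of thresholded windows. The helix-loop-helix words were likewise missing, with CACGTG in 1.34%, CAGCTG in 4.29% and CAGGTG in 4.08% of thresholded windows. GAGAG was in 11.9% and TATCGATA in 1.20% of thresholded windows, the latter against 0.202% of candidate windows. The numb window held the shorter word ATCGATA, which was chosen after that window was seen and was in 2.81% of thresholded and 1.02% of candidate windows. With 4 windows, the absence of such words says only that these letters are not there.

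Among all 137 windows, GTGGGAA was in 4 (2.92%, against 1.40% of all candidate windows), in a pair of Delta regions and in one each of N and Su(H). GTGAGAA was in 1, in an intron of N (0.730% against 0.896%). These 5 regions had signal values from 12.4 to 26.7. CAGCTG was in 11 windows (8.03% against 5.81%), among them the neur promoter region, which also held GAGAG. The word GATAA was in 17 (12.4% against 14.8%), GAGAG in 15 (10.9% against 12.6%), CAGGTG in 5 (3.65% against 5.34%) and CACGTG in 4 (2.92% against 1.52%). The A and T content was 68.3% at gro, 62.4% at E(spl)m3-HLH and 61.4% at numb, beside a thresholded median of 63.4%. The N intron window had 72.3%, and 76.7% of thresholded windows were lower. The mib1 window, which is coding, had 31.7%, and 0.704% of thresholded windows were lower. All candidate windows had a median of 52.5%.

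The 10 genes were set in a wider list of 89 genes of the same pathways, ordered into 5 roles. Of these, 13 held a thresholded peak (14.6%), and without the 10 genes 9 of 79 did (11.4%), against 8.34% of all genes. The median highest signal value was 47.5 over the 89 and 45.4 over the 79, against 43.2 over all genes. This list, too, was chosen with earlier results of these data known.

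Among receptors, ligands and their processing, 1 of 14 genes held a peak. It was rumi, whose product adds glucose to Notch, with 119 at -89 bp, beside start sites of other genes. Delta had the highest region without a peak in this role. In endocytosis and trafficking 5 of 26 did, among them mib1 and numb. The others were l(2)gd1, an endosomal sorting factor, with 272 at -65 bp in a promoter shared with another gene, Nak, the Numb-associated kinase, with 206 in an intron, and Rab11, a GTPase of recycling endosomes, with 98.4 in an intron. The l(2)gd1 peak had 75.8 in replicate 1 and 189 in replicate 2, and the Nak peak had 50.6 and 164. Both overlapped thresholded peaks of both replicates, and both were higher than any peak of the 10 genes in the pooled list. The endocytic adaptor gene lqf had the highest region without a peak there, at 61.8.

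Among nuclear factors 2 of 8 held a peak, gro and the acetyltransferase gene nej, which had 128 at -700 bp, next to a non-coding RNA start site. The corepressor gene CtBP reached 59.4 without one. Among target genes 1 of 18 did, E(spl)m3-HLH, and none of the other 17, of which ttk, a zinc finger repressor gene, was highest at 50.4. In the machinery of asymmetric division 4 of 23 did. These were brat, a translational repressor gene, with 164 in an intron, the cortical polarity genes dlg1, with 115 and 96.3, and scrib, with 85.7 in an intron, and cno, an actin-binding adaptor gene, with 67.1. The kinase gene aurA was the highest without one, at 63.98. The peaks of brat, nej, rumi, dlg1, Rab11 and scrib overlapped a thresholded peak of replicate 2 and none of replicate 1, and that of cno overlapped one of neither. At the brat peak, replicate 2 gave 113 and no replicate 1 region overlapped, although replicate 1 assigned 4 other regions to brat.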

How the data were processed

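ChIP-seq was measured in 2 biological replicates of 1 group, and the deposited peak lists (build dm6) were the starting point. Per the deposited file descriptions, the authors gave IDR-ranked candidate regions and IDR-thresholded peaks for each replicate and for the pooled replicates, with a conservative thresholded list. Each list held the authors' score (at most 1000) and signal value per region, and the −log10 IDR was taken from the ranked lists. The aligner, peak caller, control library and settings were not given in the sources used here. Depth is unknown, so no interval was given.

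Summits were assigned to the nearest start site of a protein-coding gene (Ensembl release 115) on the main arms, and 3 older symbols were replaced. A promoter was within 500 bp of any start site. Overlap meant at least 1 bp. Words were searched within 50 bp of each summit in the RefSeq Release 6 genome. Where several regions lay over a summit, the highest was taken. Values were computed in Python 3.11.15 with pandas 2.3.3, numpy 2.4.6 and scipy 1.17.1. The assignment was tested on simulated data.

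All 10 genes were named. Of the wider list, the genes with a thresholded peak were named, and per role the gene without one whose highest region was largest. The members and lists were chosen with earlier results of these data known. Alternatives changed the assignment rule, the list, the overlap, the window and the replicate.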

Additional observations from a re-analysis of the deposited data

How the results depend on the processing

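Gro and numb kept a thresholded peak under every alternative tried for the count of genes with one. The count of 4 genes, with 4 peaks, stayed at 4 with a 5 kb limit, start sites of any biotype and the score minimum. It was 5 with gene bodies extended by 1 kb, which added N, and the share of all genes under that rule is not given here. In the conservative list the count was 3 genes with 4 peaks, where 4.56% of all genes held one. The additional peak was the region with a signal value of 3.21 that overlaps the numb peak. The count was 2 genes with 2 peaks among peaks at or above the median signal, a filter whose share of all genes is not given here. It was 2 and 2 from the list of either replicate alone, where E(spl)m3-HLH and mib1 were lost. Counting candidate regions at or above the mib1 peak, chosen after seeing the data, gave 5, adding Delta. Apart from the conservative list and the single replicates, no share of all genes under these alternatives is given. The 2 genes that overlapped both replicates became 1 when 50% of each peak had to overlap, since the pooled gro peak was 85 bp wide, and 4 with candidate regions of the replicates. It stayed at 2 with the highest candidate regions of each replicate, as many as the pooled list, also chosen after seeing the data. The wider list count of 13 was 21 by gene bodies, again without a share of all genes to set it against. It was 8 in the conservative list and 5 to 13 from single replicates, 5 being the replicate 1 list. The 137 candidate regions became 81 with a 5 kb limit and 78 to 146 from single replicates. With 100 bp on either side of the summit, CAGCTG and CAGGTG appeared at mib1 and GAGAG at E(spl)m3-HLH. No paired analysis was possible because the series held a single group.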

Other observations

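By gene body, some further genes of the wider list held thresholded peaks that the nearest start site gives to other genes, named here after their values were seen. The kuz gene, which encodes a protease that cleaves Notch, held one of 74.0 in coding sequence, overlapping a thresholded peak of neither replicate. The mam gene, which encodes the Notch coactivator Mastermind, held one of 68.2 in an intron, overlapping one of replicate 2. The aux gene, which encodes the endocytic cofactor Auxilin, held a pair of 91.7 and 73.9. The former overlapped a thresholded peak of replicate 1 alone and the latter one of replicate 2 alone. Both were nearest to CG14636, at 1039 and -515 bp. Fur1 had a peak of 146 outside the gene, nearest to Vps33B at -126 bp and overlapping one of replicate 2. Within Fur1 were peaks of 71.2 and 65.6, overlapping one of neither. That of 71.2 was in coding sequence of alrm, 149 bp from its start site. Also outside the gene, aph-1 had 114, nearest to Snx21 at -202 bp and overlapping peaks of both replicates. The par-6 peak of 112, likewise outside, was nearest to CG8188 at -121 bp and overlapped one of replicate 2. At AP-2alpha, an endocytic adaptor gene, a peak of 149 outside the gene overlapped thresholded peaks of both replicates. In the replicate lists its summit was nearest to AP-2alpha, and in the pooled list to ebi, at -83 bp. A promoter region of WASp, an actin regulator needed in asymmetric divisions, was thresholded in replicate 2 at 57.1 and not in the pooled list, where it had 60.8 and a score of 725.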
